A study of Mus musculus with 18 samples.

Results

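Endothelial cells (ECs) sorted from the lungs of 18-month-old FVB mice were compared after bleomycin (Aged Bleo, 5 mice) and after the PBS vehicle (Aged Sham, 4 mice), taken by their treatment and age labels from a series of 18 assays of transposase-accessible chromatin (ATAC-seq). Both groups carried a Col1α1-GFP reporter. A single intratracheal dose of bleomycin at about 1 U/kg or PBS was given, and lungs were collected at day 30. ECs were gated as CD45- EpCAM- GFP- CD31+, a gate set against leukocytes, epithelium and collagen-producing fibroblasts. Each assay came from 1 mouse and gave 1 list of peaks, that is, of open chromatin called in that mouse alone. Mice of both sexes were used according to the study's methods, the labels do not say which mouse was of which sex, and ECs of injured and spared parts of a lung were not separated. The 2-month-old mice of the series (Young Bleo, 4 mice; Young Sham, 5 mice), of the same strain and reporter and treated the same way, helped to define the regions compared and are otherwise used where the 18-month result is set beside theirs.

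Bleomycin causes DNA strand breaks and, given into the airways, an epithelial injury followed by fibrosis. The lung capillary bed that this injury disturbs holds general capillary cells, which carry the apelin receptor Aplnr and can proliferate, and aerocytes, which make its ligand apelin and line the gas exchange surface. EC identity is held by ETS, SOX, KLF, GATA and FOXF factors, and the response to injury runs through Notch, TGF-beta and BMP signalling and the immediate early AP-1 factors. Chromatin accessibility reports where such factors can reach promoters and enhancers, not how much a gene is transcribed.

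The lists held 25793 to 32220 peaks in Aged Sham and 21050 to 40883 in Aged Bleo. To compare them at equal length, the 21050 strongest peaks of each list by the peak caller's -log10 p were kept, and peaks of all 18 lists, those of the 2-month mice included, were merged into 47338 regions found in at least 2 lists. Each kept peak was given its percentile within its own mouse (100 for the strongest, 0 where a region had no kept peak), and regions were named by the gene with the nearest transcription start site (TSS). Of the 7 endothelial markers, 5 to 6 had a kept peak within 1000 bp of the TSS in each mouse, Cdh5 in all 9 and Pecam1 in all but Aged Sham 3 and Aged Bleo 4. None of 12 leukocyte markers and none of 7 platelet and red cell markers had one in any of the 9 mice. Fibroblast and mural markers had 1 to 2 of 12, Myh11 in all 9 mice and Pdgfra in all but Aged Bleo 2, with summed percentiles of 69.7 to 103.7 in Aged Sham and 62.0 to 96.4 in Aged Bleo. Lymphatic markers had 1 to 3 of 7, Flt4 in all 9 mice, with 38.9 to 63.3 and 28.9 to 52.2. Epithelial markers had 3 of 12 (Abca3, Foxj1, Hopx) in every mouse, with summed percentiles of 166 to 184 in Aged Sham and 150 to 167 in Aged Bleo (exact permutation test, two-sided, p = 0.0238; 0.143 after adjustment over the 6 marker lists). The part of these markers in the results was not tested. According to the lane codes of the deposited lists, all 5 Aged Bleo mice and Aged Sham 4 were sequenced in lane 6 and Aged Sham 1 to 3 in lane 7, so that lane and treatment overlap almost wholly. At 2 months they overlapped as well, with all 5 Young Sham mice and Young Bleo 4 in lane 8 and Young Bleo 1 to 3 in lane 7.

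A few of the regions on which the results turn are shown first, as the reference sequence of GRCm38.p6 (mm10), with matches to motifs searched on both strands in capitals. Egfl7, Notch1 and Fosb stand for regions higher in rank after bleomycin at endothelial, Notch and AP-1 genes, and Zeb2 and Apln for regions that were lower. The Egfl7 window (chr2:26576041-26576240, intergenic) held 1 ETS core (CAGGAAG) and 1 KLF match (GGGNGTGG), the Notch1 window (chr2:26490806-26491005, intron) 1 ETS core and 1 SOX match (ATTGTT), the Fosb window (chr7:19327188-19327387, intergenic) 1 AP-1 match (TGANTCA) and the Apln window (chrX:48054302-48054501, intergenic) 1 ETS core. None of the 15 motif families matched in the Zeb2 window (chr2:45171889-45172088, intergenic). Among all 47338 regions, the 200 bp around the summit held an ETS core in 19.97%, a SOX match in 12.8%, a KLF match in 12.6% and an AP-1 match in 8.63%.
Egfl7: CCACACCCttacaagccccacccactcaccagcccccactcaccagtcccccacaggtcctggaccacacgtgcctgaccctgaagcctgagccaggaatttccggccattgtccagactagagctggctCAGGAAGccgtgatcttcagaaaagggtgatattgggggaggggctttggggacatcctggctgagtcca
Notch1: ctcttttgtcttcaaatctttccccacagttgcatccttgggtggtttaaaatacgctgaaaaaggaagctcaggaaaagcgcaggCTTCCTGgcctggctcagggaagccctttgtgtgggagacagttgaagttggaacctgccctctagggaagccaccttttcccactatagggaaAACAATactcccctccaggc
Fosb: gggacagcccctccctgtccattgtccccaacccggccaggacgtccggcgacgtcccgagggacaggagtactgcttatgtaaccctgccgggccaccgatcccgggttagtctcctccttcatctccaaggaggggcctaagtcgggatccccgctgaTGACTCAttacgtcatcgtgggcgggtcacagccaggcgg
Zeb2: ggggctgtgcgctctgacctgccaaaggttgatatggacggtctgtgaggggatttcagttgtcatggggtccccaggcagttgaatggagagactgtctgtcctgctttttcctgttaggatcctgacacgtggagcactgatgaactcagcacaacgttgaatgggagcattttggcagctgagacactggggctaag
Apln: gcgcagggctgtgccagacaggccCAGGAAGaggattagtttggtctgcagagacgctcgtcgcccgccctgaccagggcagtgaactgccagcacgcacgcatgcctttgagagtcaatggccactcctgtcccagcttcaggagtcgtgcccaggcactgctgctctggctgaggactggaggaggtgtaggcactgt

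Promoters made up most of the regions whose rank changed. The 200 bp before the TSS of Bpgm (chr6:34476156-34476355, plus strand), the leading region among the lower ones, are shown as an example. They had a GC content of 52.5% with 10 CpG, and no motif of the 15 families matched there.
Bpgm: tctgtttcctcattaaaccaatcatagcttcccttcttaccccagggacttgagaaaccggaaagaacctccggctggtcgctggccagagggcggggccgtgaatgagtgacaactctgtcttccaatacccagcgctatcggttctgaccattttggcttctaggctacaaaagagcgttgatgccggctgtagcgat

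Presence of a peak separated few regions. In the equal-length lists, 152 regions carried a peak more often in Aged Bleo at a two-sided Fisher's exact p of at most 0.05, which is 0.321% of all regions, and 256 carried one less often, which is 0.541%. With all peaks the counts were 225 (0.475%) and 194 (0.41%), and when peaks had to cover 50% of a region 84 and 462. No region passed after Benjamini-Hochberg adjustment over all regions. A kept peak in all 5 Aged Bleo mice and no Aged Sham mouse was found at 19 regions, and the reverse, 0 of 5 against 4 of 4, at 33. These splits depended on the length of the list. In the full lists 12 regions had a peak in all 5 Aged Bleo and no Aged Sham mouse and 22 the reverse, but they were different ones. Each of the 19 had a peak in the full list of at least 1 Aged Sham mouse, and each of the 33 in that of at least 1 Aged Bleo mouse. Presence in the full lists still differed at 3 of these 52 regions, near Dnah14, Tox and Sema3c (two-sided Fisher's exact p = 0.0476, unadjusted).

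Of the 19, an intronic region of the predicted gene Gm20110 (chr10:99615788-99616166) was the strongest, at percentiles 18.2, 36.2, 29.3, 50.5 and 37.1 in Aged Bleo 1 to 5. Others lay near Ephb4, the venous ephrin receptor, Tlr5, a flagellin receptor, Alox5ap, which assists leukotriene synthesis, and Lyl1, a hematopoietic and endothelial transcription factor. Of the 33, the strongest lay near Mir5103 (chr1:34409553-34410281, intergenic), at 27.5, 24.2, 35.9 and 36.7 in Aged Sham 1 to 4. The promoter of Atf6 (chr1:170867494-170868046), a sensor of endoplasmic reticulum stress, stood at 29.8, 14.1, 38.1 and 17.7 in Aged Sham, and 4 of the 5 Aged Bleo mice had a peak there in the full list, all below the kept length. The set also held regions at Aplnr, Sema3c, a guidance factor of general capillary cells, Lpl, the lipoprotein lipase, Sdc1, a heparan sulfate proteoglycan, and Psmb8, an immunoproteasome subunit.

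Within-list rank gave the clearer contrast. Of the 25305 regions with a kept peak in at least 2 of the 9 mice, 496 were higher in Aged Bleo (1.96%) and 387 lower (1.53%) at a limma adjusted p of at most 0.05. A change in the share of an EC subtype and a change within its cells cannot be told apart in these sorted pools. The counts fell to 0 in both directions when full lists, the order of fold enrichment or sequencing lane as a covariate was used, with smallest adjusted p of 0.0724, 0.153 and 0.303, while 1370 higher and 1255 lower, 1086 and 1489, and 526 and 911 regions had an unadjusted p under 0.05. Of the 496 and 387 regions, all kept their direction with full lists and with lane, and 493 of 495 and 372 of 383 kept it by fold enrichment. Leaving out 1 mouse at a time gave 119 to 756 higher and 54 to 554 lower regions, with 756 and 554 without Aged Sham 4 and fewer by over 1.5 times without Aged Sham 1, 2 or 3 or Aged Bleo 1, 2 or 5.

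Of the 12 regions with the smallest p among the higher ones, 8 lay at promoters, 2 in exons and 2 between genes. At the promoter of Mapk3, which encodes the kinase ERK1, percentiles were 63.5, 69.6, 69.9 and 68.1 in Aged Sham and 84.7, 86.9, 82.3, 84.8 and 85.05 in Aged Bleo. The lowest Aged Bleo mouse lay above the highest Aged Sham mouse, and the means differed by 16.98 percentile points (SE 1.71, adjusted p = 0.00738). Pias4, a SUMO ligase (10.04, SE 1.10), Rnf5, a membrane-bound ubiquitin ligase (5.96, SE 0.659), Dazap1, an RNA-binding protein (12.6, SE 1.44), and an exon of Brd2, a bromodomain reader of acetylated histones (12.6, SE 1.65), showed the same order of groups. At Txnip, which binds and inhibits thioredoxin, percentiles ran from 83.0 to 87.7 in Aged Sham and from 92.5 to 95.5 in Aged Bleo. Regions were chosen by p on these same percentiles, so that a separation of the groups is partly built in. The groups did not overlap at 93.35% of the higher and 97.42% of the lower calls, against 7.96% of all tested regions.

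Egfl7 was the one gene of the pathway lists among the leading 12. It encodes a secreted protein of the vessel wall and hosts a microRNA of ECs. The intergenic region 4929 bp before its TSS (chr2:26575917-26576391), whose sequence is given above, stood at 59.3, 61.4, 62.0 and 64.1 in Aged Sham and at 81.2, 82.5, 78.1, 73.5 and 80.9 in Aged Bleo. The difference was 17.5 percentile points (SE 2.22, adjusted p = 0.0102) and the groups did not overlap, as at most of the higher calls.

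Of the 12 leading regions lower in Aged Bleo, 7 lay at promoters, 2 between genes, and 1 each in an exon, an intron and a UTR. Bpgm, the bisphosphoglycerate mutase of glycolysis, had percentiles of 92.4, 91.6, 91.8 and 90.2 in Aged Sham and 84.4, 83.9, 85.2, 84.0 and 85.4 in Aged Bleo (chr6:34475926-34476537, difference -6.92, SE 0.854, adjusted p = 0.0102). Mice within a group were close together here and the groups lay well apart. Most of the lower calls had groups without overlap. Asah1, the lysosomal acid ceramidase, differed by -7.64 (SE 0.978), Ppp6c, a phosphatase subunit, by -8.07 (SE 1.14), and Dhrs7, a short-chain dehydrogenase, by -14.1 (SE 2.01). Prkd1, encoding protein kinase D1, ran from 93.4 to 94.9 in Aged Sham and from 86.1 to 90.6 in Aged Bleo. The largest difference of the 12 was at an intergenic region 54523 bp before the TSS of Zeb2 (chr2:45171561-45172369), a zinc finger repressor known from epithelial and endothelial-to-mesenchymal transition. It stood at 79.1, 80.3, 75.2 and 77.9 in Aged Sham and at 59.0, 63.0, 66.9, 65.7 and 62.0 in Aged Bleo, a difference of -14.8 (SE 2.23, adjusted p = 0.0110).

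**Figure D1:**
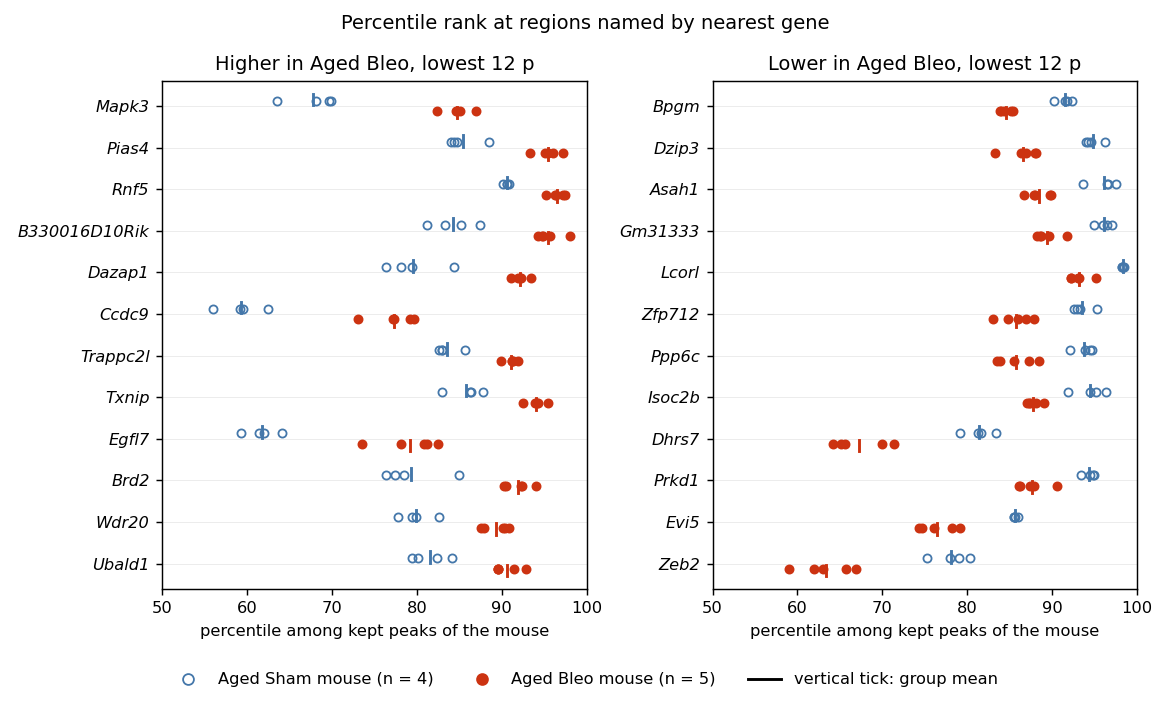
Percentile rank (horizontal axis, 50 to 100, 100 for the strongest kept peak of a mouse) at the 12 leading regions by p for either direction, 1 row per region named by its nearest gene. Open blue circles are Aged Sham mice, filled red circles Aged Bleo mice and vertical ticks group means. The groups do not overlap in any row, and at Mapk3 all Aged Bleo mice lie at 82.3 or above against at most 69.9 in Aged Sham. Rows were chosen by p on these percentiles, so that separation is partly built in. It holds at 93.35% of the higher and 97.42% of the lower calls, against 7.96% of tested regions.

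The 883 regions differed from all those tested in position and strength, and the higher and lower ones differed from each other in base composition. Promoters made up 70.6% of the higher and 64.3% of the lower regions, against 34.5% of those tested. A kept peak was present in all 9 mice at 96.2% and 86.0% of them, against 58.3%, so that most were open in every mouse and shifted within the upper part of the list. The median Aged Sham percentile was 82.45 in higher and 88.7 in lower regions, against 38.0 in all tested regions and 71.2 in tested promoters. How far the power of the test at high percentiles enters the shares of promoters and of regions open in every mouse was not tested. The median GC content was 67.5% in higher and 62.5% in lower regions against 57.0%, and a median of 7, 3 and 3 TSSs lay within 100 kb. A KLF match stood in 26.2% of the higher, 11.4% of the lower and 15.2% of the tested regions, an ETS core in 7.86%, 10.6% and 18.9%. Among promoters alone, the median GC content was 68.75% in higher and 63.0% in lower regions against 66.0% in those tested, a KLF match stood in 28.0%, 11.65% and 18.97%, and an ETS core in 4.86%, 10.4% and 9.65%, so that the lower regions changed sides for GC content and the ETS core. The X chromosome held 1 higher and 17 lower of 597 tested regions. The labels give no sex, and the promoters of Eif2s3y, Uty and Ddx3y on the Y chromosome had a kept peak in all 9 mice. The part of sex in the X counts was not tested. When ranks were centred on GC content, a setting chosen after the data were seen, 492 higher and 309 lower regions passed, 410 and 269 of them among those called without it.

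Among genes of the vascular pathways, more regions were called higher than lower. The 16 lists held 241 genes with 676 tested regions, of which 21 were higher (3.11%, against 1.96% of all tested regions) and 3 lower (0.444%, against 1.53%), with a median difference of 1.89 percentile points against 0.00 over all tested regions. Among tested promoters alone, 350 of 8734 were higher and 249 lower, larger shares than over all tested regions. The part of promoters in the shares of these lists, here and list by list below, was not tested. Presence gave no excess of regions more often kept. Of the 1304 regions of the lists, 5 carried a kept peak more often and 9 less often (Fisher's exact p of at most 0.05). Over all regions the shares were 0.321% and 0.541%. With all peaks the counts were 6 and 9, against 0.475% and 0.41% of all regions. The 9 of the equal-length lists included regions at Nfkbia, Hey1, Tal1 and Tgfbr3. With all 18 mice in the fit 47 of the 676 were higher in rank and 22 lower. That fit also called more of all tested regions in both directions, with the counts given under the dependence on processing. The median difference fell to 0.989 without Aged Bleo 2 and 1.19 without Aged Bleo 1, and was 3.66 with all peaks, 1.25 by fold enrichment and 0 without the filter. With all peaks the lists of the mice differ in length, and each of the 16 gene lists had a median above 0 (1.37 to 5.71). No value over all tested regions stands beside the 3.66. Leaving out 1 mouse at a time gave 6 to 34 higher and 0 to 8 lower regions of these lists, with 34 and 8 without Aged Sham 4 and 12 or fewer higher without Aged Sham 1, 2 or 3 or Aged Bleo 1, 2 or 5. Without a filter, or without the mean-variance trend, 1 higher and 1 lower region passed. The calls at Egfl7, Foxf1, Gata2, Bmpr2 and Jund held without any 1 of the 9 mice. Endothelial identity genes had 6 of 89 regions higher (6.74%) and none lower. The 6 became 3 without Aged Sham 1, Aged Sham 3 or Aged Bleo 1, 4 without Aged Sham 2, and 1 without the filter or the trend, and 2 were lower without Aged Bleo 3. Foxf1, the forkhead factor required for lung capillaries, stood at its promoter at 70.8, 75.4, 68.9 and 77.7 in Aged Sham and at 86.4, 87.0, 83.7, 84.9 and 86.5 in Aged Bleo, a difference of 12.5 (SE 1.82, adjusted p = 0.0102). Gata2 (10.1, SE 1.503, adjusted p = 0.0105), the shear-responsive factors Klf4 (5.30, SE 1.06) and Klf2 (3.51, SE 0.709), and Sox7 (6.49, SE 1.47) were also higher, but the calls at Klf2 and Klf4 were lost in 4 and that at Sox7 in 6 of the 9 omissions of 1 mouse. At Klf2 and Klf4 the groups were apart although all mice were above the 88th percentile.

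Notch pathway regions had 3 of 42 higher (7.14%, against 1.96% of all tested) and a median difference of 3.97, which became 1.705 with lane as a covariate, 1.86 without Aged Sham 3, 2.56 without Aged Bleo 2 and 1.17 without the filter. The ligand gene Dll4, which marks arterial and tip cells, was higher at its promoter by 5.62 (SE 1.35, adjusted p = 0.0434), and the target gene Hes1, a transcriptional repressor, by 12.5 (SE 2.54, adjusted p = 0.0244). At the receptor gene Notch1 the called region was mostly not kept in Aged Sham. This intronic region 12805 bp into the gene (chr2:26490671-26491363) stood at 0, 0, 0 and 9.67 in Aged Sham and at 36.9, 34.0, 11.4, 29.0 and 27.5 in Aged Bleo (25.3, SE 6.30, adjusted p = 0.0498). In full lists 3 of 4 Aged Sham and 5 of 5 Aged Bleo mice had a peak there. The Notch1 region met the filter through its kept peaks in Aged Bleo, and without the filter its adjusted p was 0.281. The calls at Dll4 and Notch1 were close to the threshold: each held in 7 of 22 alternative settings and was lost on leaving out any of 7 of the 9 mice, the exceptions being Aged Sham 4 and Aged Bleo 5 for Dll4 and Aged Sham 4 and Aged Bleo 3 for Notch1. Hes1 held in 14 and was lost without Aged Bleo 1 or 5.

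In the TGF-beta and BMP list, 5 of 85 regions were higher (5.88%, against 1.96% of all tested) and none lower (against 1.53%), with a median difference of 2.77 (1.55 by fold enrichment and 0 without the filter). The 5 became 1 without Aged Sham 1 or 3, 2 without Aged Bleo 1, 2 or 5, 3 without Aged Sham 2, and 0 without the trend or the filter. They belonged to the receptors Bmpr2 and Acvrl1, both of them genes of hereditary pulmonary vascular disease, to the ligand Tgfb1, to the inhibitory Smad6 and to the BMP target Id3. At Bmpr2 percentiles were 83.0, 81.7, 82.6 and 87.4 in Aged Sham and 91.0, 94.0, 91.7, 93.3 and 92.0 in Aged Bleo (8.72, SE 1.22, adjusted p = 0.0102). Acvrl1, which encodes ALK1, rose by 11.0 (SE 2.37) in an intron, Id3 by 10.9 (SE 2.11), Tgfb1 by 10.3 (SE 2.40) and Smad6 by 9.59 (SE 2.19). Of 22 alternative settings Bmpr2 held in 16, Id3 in 14, Smad6 in 10, and Acvrl1 and Tgfb1 in 9 each, each of the last 3 being lost in 6 of the 9 omissions of 1 mouse. The ligand Bmp2, at a distal region 200670 bp from its TSS, stood at 0, 31.6, 0 and 47.2 in Aged Sham and at 74.0, 67.3, 38.1, 7.09 and 32.9 in Aged Bleo and did not pass (adjusted p = 0.403).

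AP-1 genes had the largest share of calls among the lists, 4 of 32 regions or 12.5% against 1.96% of all tested, all higher. The 4 became 1 without Aged Sham 1, 2 without Aged Sham 2, Aged Bleo 1 or Aged Bleo 5, 7 without Aged Sham 4, and 0 with full lists, by fold enrichment, with lane, without the filter or without the trend. Jund stood at 89.1, 93.5, 90.6 and 94.8 in Aged Sham and at 98.2, 99.6, 98.4, 98.3 and 98.3 in Aged Bleo (6.58, SE 1.04, adjusted p = 0.0115). Jun (5.58, SE 1.24), Junb (16.3, SE 3.37) and the region 17240 bp before Fosb (7.21, SE 1.23) were higher too, and the Fosb window carries the AP-1 match shown above. The calls at Jun and Junb were each lost in 5 of the 9 omissions of 1 mouse, and that at Fosb in 1. The list of leukocyte adhesion and NF-kB had 2 of 42 regions higher (4.76%), at Nfkbia, the inhibitor of NF-kB (6.57, SE 1.39, adjusted p = 0.0276), and Relb, a subunit (7.73, SE 1.89, adjusted p = 0.0463). At Relb the groups overlapped, with Aged Sham 4 at 89.7 above Aged Bleo 4 at 87.9, and the call held in 8 of 22 settings. No region of this list passed without Aged Sham 1, 2 or 3 or Aged Bleo 1 or 2, and another region near Nfkbia, 42066 bp from its TSS, was kept in 0 of 5 Aged Bleo and 3 of 4 Aged Sham mice. Myo10, a filopodial myosin, was the one higher region of 37 (2.70%, against 1.96% of all tested) in the cytoskeleton and migration list (5.19, SE 1.09, adjusted p = 0.0268). Its call held in 11 of 22 settings and was lost in 5 of the 9 omissions of 1 mouse.

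The 3 lower regions of the pathway lists lay at Aplnr, Apln and Lpl. A region in the UTR of Aplnr (chr2:85139286-85139763) stood at 15.4, 19.7, 19.4 and 14.1 in Aged Sham and at 0 in all 5 Aged Bleo mice (-17.1, SE 3.36, adjusted p = 0.0227). Its ligand gene Apln, at a region 19660 bp before the TSS (chrX:48054096-48054929), had 15.8, 23.6, 7.65 and 17.9 in Aged Sham and 0.917, 0, 0, 1.54 and 0 in Aged Bleo (-15.7, SE 3.91, adjusted p = 0.0496). Both lay low in every list, and in full lists 4 of 5 Aged Bleo mice had a peak at Aplnr and 5 of 5 at Apln. Lpl, at a region 73578 bp from its TSS, stood at 20.5, 9.25, 32.0 and 15.4 in Aged Sham and at 0 in all Aged Bleo mice, a difference of -19.3 (SE 4.70), with a peak in 3 of 5 Aged Bleo mice in full lists. Each was 1 region of its gene's list, which had 61 (general capillary), 39 (aerocyte) and 16 (lipid uptake) tested regions, or 1.64%, 2.56% and 6.25% against 1.53% of all tested. Aplnr and Lpl entered the test through their kept peaks in Aged Sham alone, so that their difference is partly set by the filter. Without the filter the adjusted p was 0.0442 at Aplnr, 0.108 at Apln and 0.156 at Lpl. Apln held in 2 of 21 alternative settings and was lost on leaving out any 1 mouse, Lpl held in 4 of 22 and without Aged Sham 4 alone, and Aplnr held in 12 of 22 and was lost without Aged Sham 1, 2 or 3 or Aged Bleo 1 or 5.

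**Figure D2:**
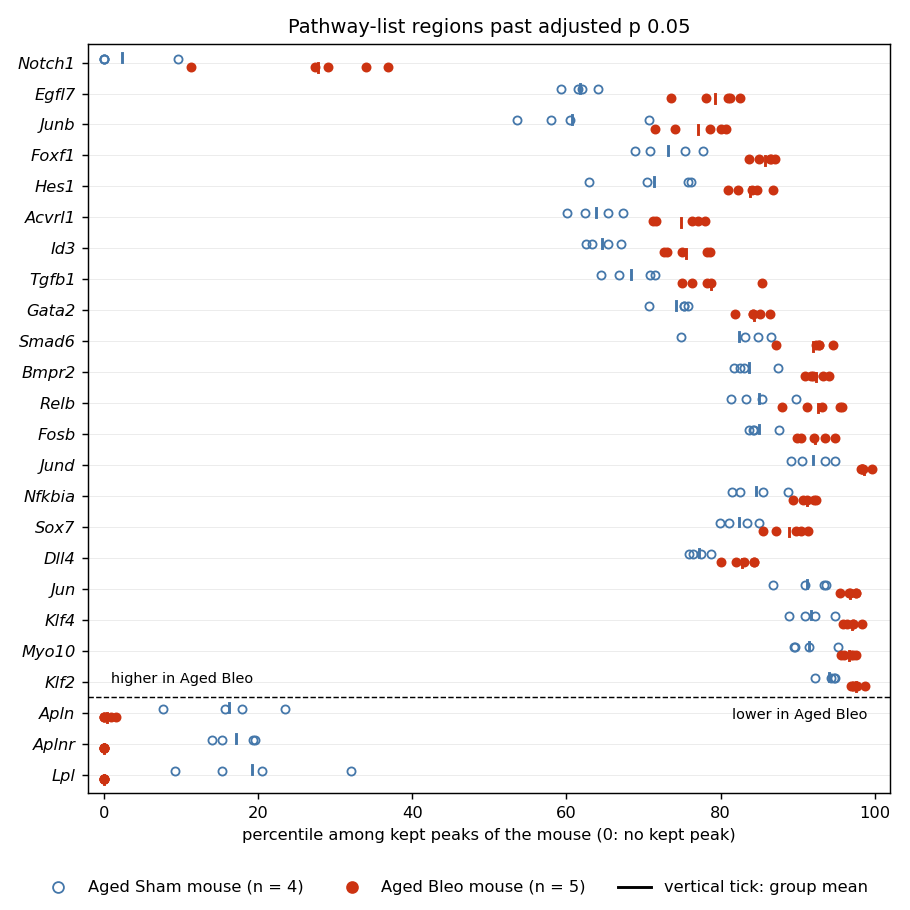
Percentile rank (horizontal axis, 0 for no kept peak) at the 24 regions nearest to genes of the pathway lists that passed an adjusted p of 0.05, 1 row per region and symbols for mice and means by group (Aged Sham blue, Aged Bleo red). The 21 rows above the dashed line are higher in Aged Bleo, mostly between percentiles 60 and 100, and the 3 rows below it, Apln, Aplnr and Lpl, are at or near 0 in all Aged Bleo mice.

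No region passed in the other lists, which were artery and vein (46 tested), injury-associated endothelium (28), vascular growth factor receptors (68), basement membrane (41), interferon-stimulated genes (31), senescence and p53 (23) and cell cycle (29). Their median differences ran from -2.86 for interferon-stimulated genes to 4.55 for basement membrane. The value for interferon-stimulated genes was -0.790 without Aged Bleo 2, -0.171 by fold enrichment, 0 with lane and 1.37 with all peaks. That for basement membrane was 2.07 without Aged Bleo 2, 2.515 without Aged Bleo 1 and 0.609 by fold enrichment, and both were 0 without the filter. Cdkn1a, the cell cycle inhibitor p21, stood at 72.7, 79.3, 77.1 and 84.96 in Aged Sham and at 91.8, 91.0, 86.9, 80.1 and 88.3 in Aged Bleo (adjusted p = 0.0847). The promoter of Hspg2, which encodes perlecan, had 37.4, 52.9, 44.5 and 62.1 against 75.01, 69.5, 67.1, 58.8 and 56.8 (adjusted p = 0.127). At Vwf, von Willebrand factor, Aged Bleo 1 and 2 were at 24.7 and 30.2, and the other 3 Aged Bleo mice at 52.6 to 55.2 lay within or just below the 54.3 to 65.8 of Aged Sham (adjusted p = 0.264). A list of genes was taken from the study's account of the bleomycin response at 18 months, and so chosen on these mice. That account set injured aged ECs against uninjured young ECs, not against Aged Sham, so that its contrast is not the one made here. Of the list, 19 genes had a tested region and 2 passed (Aplnr and Notch1), while 6.14% of all genes with a tested region had at least 1 that passed.

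The 5 Aged Bleo mice were less alike than the 4 Aged Sham mice. Pairs of Aged Sham mice shared 78.1% to 80.1% of their kept regions with Spearman rho of 0.911 to 0.930 over the 25305 regions. Pairs of Aged Bleo mice ranged from 69.9% and 0.831 (Aged Bleo 2 and 4) to 83.5% and 0.947 (Aged Bleo 1 and 2), which were the least and the most alike of all pairs within a group. Across groups the range was 71.5% to 80.3%, and the most alike pair, Aged Sham 4 with Aged Bleo 3, came from the same lane. These values are descriptions, since all pairs draw on the same 9 mice.

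**Figure D3:**
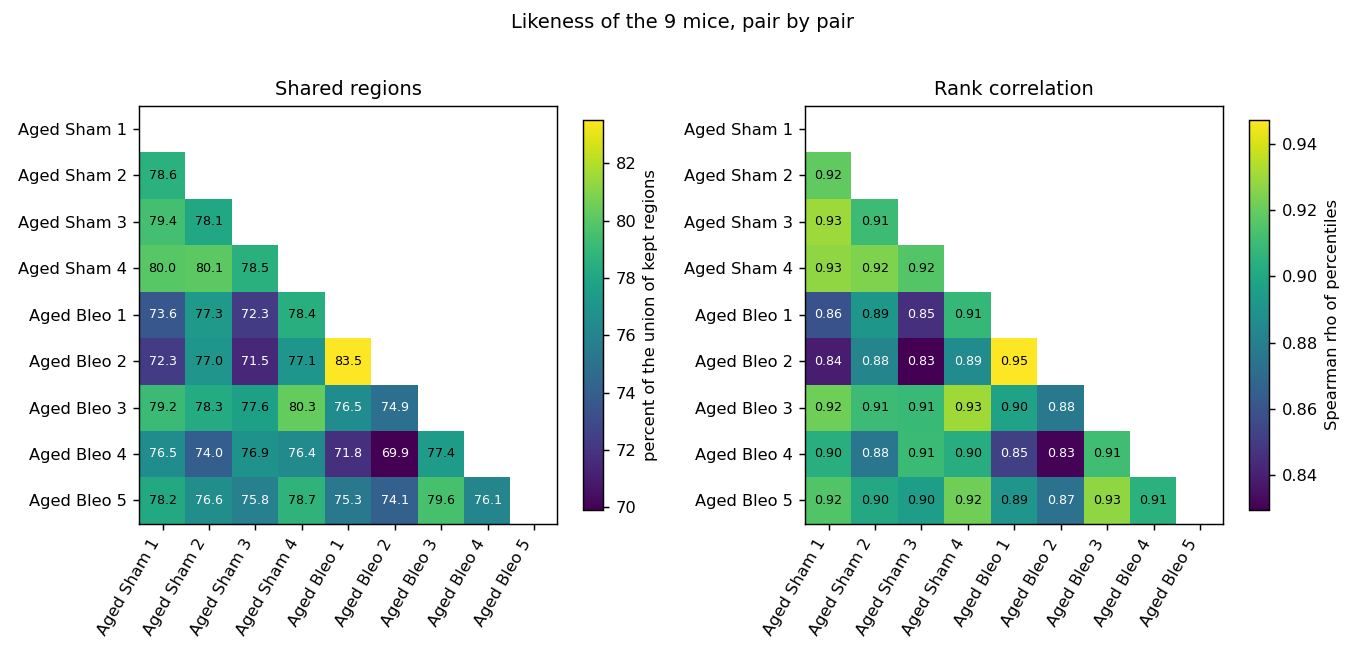
Likeness of each pair of the 9 mice, as the percent of the union of kept regions that both share (left) and as Spearman rho of percentiles (right), with the value in each cell and lighter colours for closer pairs. Aged Bleo 1 and 2 form the closest pair, at 83.5% and 0.95, and both stand furthest from Aged Sham 1 and 3 and from Aged Bleo 4.

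Aged Bleo 1 and 2 also carried most of the regions open in Young Bleo and not in Young Sham. At 2 months, 322 regions had a kept peak in 4 of 4 Young Bleo and 0 of 5 Young Sham mice, and 259 the reverse; no 18-month mouse entered that choice. Of the 322, kept peaks were found for 88.2% (95% Wilson interval 84.2 to 91.3, counting error only) and 84.8% in Aged Bleo 1 and 2, but for 42.2%, 24.5% and 29.2% in Aged Bleo 3 to 5. Aged Sham mice had 18.3%, 46.6%, 20.2% and 57.5%. The ranges of the groups overlapped and the difference in means did not pass the exact permutation test (53.8% ± 30.6, SD, n = 5, against 35.6% ± 19.4, n = 4; p = 0.317, smallest possible 0.00794). Of the 259 open in Young Sham alone, 8.88% and 17.8% were kept in Aged Bleo 1 and 2 and 49.0%, 50.6% and 46.3% in Aged Bleo 3 to 5, against 72.2%, 60.2%, 68.7% and 40.9% in Aged Sham (exact permutation p = 0.0794). With full lists, where 224 regions met the same rule, the means were 20.3% and 42.0% and p was 0.0238 (exact permutation test). There Aged Bleo 1 and 2 no longer stood apart, with 14.7%, 31.7%, 26.8%, 9.82% and 18.3% in Aged Bleo 1 to 5. For the 478 regions open in Young Bleo alone in full lists, Aged Bleo 1 to 5 had 87.4%, 85.8%, 21.1%, 2.09% and 11.9%. The means were 41.7% in Aged Bleo and 18.5% in Aged Sham (exact permutation p = 0.389). Aged Sham 4, the sham mouse of lane 6, had the highest share of regions open in Young Bleo alone in its group and the lowest of those open in Young Sham alone. Aged Bleo 1 and 2 also had the longest full lists of the 9, 37595 and 40883 peaks, and Aged Bleo 4 the shortest; the part of list length in the shares was not tested.

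**Figure D4:**
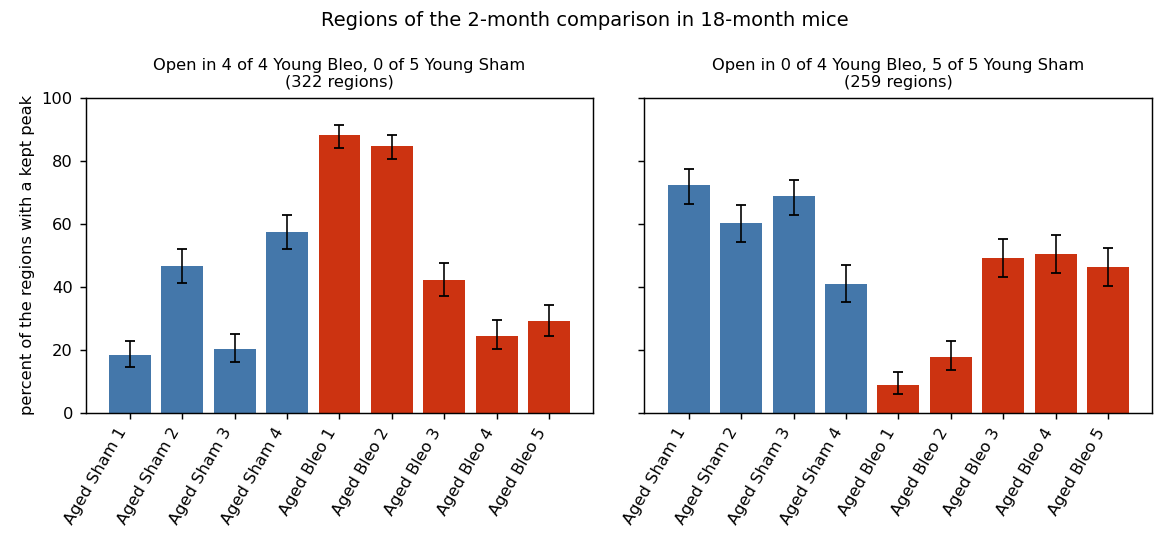
Percent of regions with a kept peak in each 18-month mouse (blue, Aged Sham; red, Aged Bleo), for the 322 regions kept in all Young Bleo and no Young Sham mice (left) and the 259 kept in all Young Sham and no Young Bleo mice (right); bars start at 0 and error bars are 95% Wilson intervals. Aged Bleo 1 and 2 lie at 88.2% and 84.8% on the left and 8.88% and 17.8% on the right, apart from the other 3 Aged Bleo mice. With full lists, not drawn, they did not stand apart for regions open in Young Sham alone (14.7% and 31.7%, against 26.8%, 9.82% and 18.3% in Aged Bleo 3 to 5).

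Regions kept in no Aged Sham mouse showed the same split. There were 486 such regions in exactly Aged Bleo 1 and 2, against 17 to 111 for any other pair of Aged Bleo mice, and 124 of the 486 (25.5%) also carried a peak more often at 2 months by the Fisher test, against 5.28% of the other 3275 regions kept in no Aged Sham and at least 1 Aged Bleo mouse and 2.17% of all regions. The share was 28.3% to 35.7% in the sets of exactly 3 mice that held both Aged Bleo 1 and 2, 19.5% (8 of 41) for Aged Bleo 1 and 3, and 0 to 5.88% for the other pairs. Of the 1844 regions kept in neither Aged Bleo 1 nor 2 it was 1.57%. An intronic region of Hspg2 stood at 31.6 and 25.3 in Aged Bleo 1 and 2 and at 0 in the other 7 mice. The promoters of Col4a1, a collagen IV chain (34.5 and 45.8), Lrg1, a modulator of TGF-beta signalling in ECs (29.6 and 35.2), and Vwa1, a matrix protein (22.4 and 44.2), likewise had a kept peak in these 2 mice alone. A region at Fabp4, a fatty acid chaperone of capillary ECs, was not among the 486, since it had 12.4 in Aged Sham 4 beside 32.4 and 39.5 in Aged Bleo 1 and 2. In contrast, a Cdh13 intronic region was kept at 45.3, 41.4 and 30.4 in Aged Bleo 1 to 3 and at 0 in Aged Bleo 4 and 5.

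Each mouse was then placed at regions called without it, where 100% is the mean of the other Aged Bleo mice and 0% that of the other Aged Sham mice. Aged Bleo mice lay at 67.6% to 99.2% for higher and 55.7% to 136% for lower regions. Aged Sham 1 to 3 lay at -5.51% to 2.56% and 14.4% to 29.4%. Aged Sham 4 lay near the middle, at 54.1% over the 756 higher and 51.0% over the 554 lower regions called without it. Without this mouse the lane and the treatment coincide, so that these 756 and 554 regions also separate lane 6 from lane 7, and the 2 cannot be told apart there. For all 5 Aged Bleo mice the position was thus nearer their own group, Aged Bleo 4 and 3 being the least so for lower regions.

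**Figure D5:**
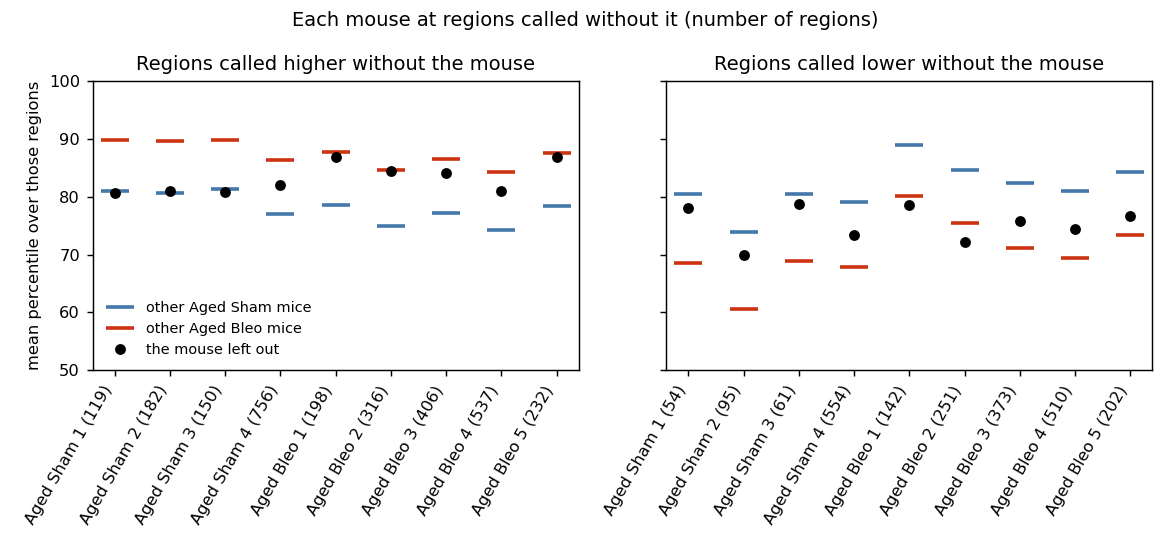
Mean percentile (vertical axis, 50 to 100) of each mouse (black points) at the regions called higher (left) or lower (right) when it was left out, with the means of the remaining Aged Sham (blue) and Aged Bleo (red) mice as dashes and the number of regions in brackets. Aged Sham 4, the one sham mouse in the lane of the Aged Bleo mice, lies between the groups, at 82.1 between 77.1 and 86.3 for higher regions, while the other 3 Aged Sham mice lie at or near the sham mean.

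Set beside the 2-month mice, which share no animal with the 18-month comparison, the 18-month calls pointed mostly the same way. At 2 months 2606 of 24979 regions were higher (10.4%) and 2554 lower (10.2%) in Young Bleo. They included 267 of the 496 higher regions, which is 53.8% of the 18-month and 10.2% of the 2-month calls, and 170 of the 387 lower regions (43.9% and 6.66%). Called in opposite directions were 0 and 1. The sign at 2 months was the same at 92.9% of the higher and 90.4% of the lower regions, with median differences of 4.05 and -3.22 there. No share of regions with the same sign over all tested regions stands beside these values, and lane and treatment overlapped at both ages. Within lane 8, where Young Bleo 4 alone could be set against the 5 Young Sham mice, the sign was the same at 83.7% and 73.7%, with medians of 2.82 and -1.47. Foxf1, Gata2, Jund and Nfkbia were higher at both ages. Bmpr2 (1.75 at 2 months, adjusted p = 0.384), Acvrl1 (3.33, adjusted p = 0.393) and Dll4 (-4.93, adjusted p = 0.106) passed at 18 months alone, but the difference between ages did not pass for any of these 3 (interaction adjusted p of 0.153, 0.363 and 0.0803).

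The response to bleomycin itself differed between ages at few regions. By the interaction term over all 18 mice, it was higher at 18 months at 25 of 27834 regions (0.0898%) and lower at 36 (0.129%). The counts were 2 and 96 with lane as a covariate and 12 and 14 with all peaks. Some regions entered the fit through 1 group of 2-month mice alone, so that the filter partly sets the 25 and 36. Those near Rflna, Fhit and Gabre were kept in Young Bleo only, and those near Gm27162 and Rpia in Young Sham only. Among the 25, a region 19126 bp before Vcam1, the leukocyte adhesion receptor, and one in the UTR of Gata2 had differences at 18 months of 1.28 and 1.45, against -37.7 and -26.2 at 2 months. Both stood low in Aged Sham already, at 13.3, 0, 0 and 0 for Vcam1 and 15.1, 13.2, 0 and 0 for Gata2, against 33.8 to 46.1 and 20.3 to 30.1 in Young Sham. A percentile cannot fall below 0, so that the 18-month difference had little room to be negative there. Among the 36, regions near Tie1, an endothelial receptor kinase (-0.691 against 32.3), Tnfsf18, a TNF family ligand (-5.60 against 46.8), and the promoter of the forkhead factor Foxc1 (-8.29 against 11.4) had differences close to 0 or below it at 18 months, listed first, and above it at 2 months. The Foxc1 promoter had a mean of 69.1 in Aged Sham, against 55.7 in Young Sham and 67.1 in Young Bleo. Means in Aged Sham and Young Sham were 1.16 and 1.73 at Tie1 and 11.97 and 7.36 at Tnfsf18. The part of the sham level in these differences was not tested. Lcorl and Zfp712, of the leading lower regions, fell at 18 months by 5.19 and 7.78 and differed at 2 months by -0.487 and -0.762.

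No value over whole lists passed its test. The number of peaks was 31093 ± 8076 (SD, n = 5) in Aged Bleo and 28882 ± 3383 (n = 4) in Aged Sham (exact permutation p = 0.611), and the share of kept peaks in promoters 42.4% against 43.1% (p = 0.540). The median peak was narrower in Aged Bleo, 332 bp ± 23.96 (SD) against 381 bp ± 25.7 (exact permutation p = 0.0238), which did not pass after adjustment over the 5 values (adjusted p = 0.119). None of 15 motif families passed for the share of kept peaks with a match (smallest exact permutation p = 0.0635, adjusted 0.357). AP-1 matches stood in 7.97%, 9.04%, 6.80%, 6.31% and 6.48% of the kept peaks of Aged Bleo 1 to 5 and in 6.54%, 7.70%, 6.93% and 7.06% of those of Aged Sham. The highest values were again in Aged Bleo 1 and 2.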

How the data were processed

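Chromatin accessibility was measured by Omni-ATAC on sorted ECs of each mouse in 18 mice of 4 groups. The authors mapped reads to mm10 with BWA 0.5.9, removed duplicates with Picard 1.67 and called peaks in each mouse apart with MACS2 2.0.10 at an FDR of 1%. The deposited lists give fold enrichment over local background, a ratio, the -log10 p and -log10 q of the peak caller, and a rescaled score that was not used. None of these is scaled between libraries and read depth is not given in them, so that the authors' read count comparison could not be repeated and only presence and order within a list were compared. Mean background coverage solved from the deposited values was 1.02 to 1.60 in the 9 mice, and the 2 kept lists differing most in lowest -log10 p were cut at 4.81 (Aged Bleo 4) and 23.3 (Aged Bleo 2).

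Peaks on chromosomes 1 to 19, X and Y overlapping by at least 1 bp were merged; promoters ran from 1000 bp before to 100 bp after a RefSeq TSS of GRCm38.p6. Presence was compared by Fisher's exact test, percentiles by limma 3.58.1 in R 4.3.3 (eBayes with trend, Benjamini-Hochberg over all tested regions, threshold 0.05), and per-mouse values by two-sided exact permutation in Python 3.11.15 with SciPy 1.17.1. Motifs were searched within 100 bp of each summit. Tested on simulated data, the limma step called 29 of 100 regions shifted by 20 percentile points and 1 of 100 shifted by 10 at mean percentiles of 40 to 75, with 2 false calls. Named regions are the leading 12 by p for either direction, up to 4 genes per list by p, and the genes the study discussed; others named were chosen after their values were seen. The mice compared, gene lists and markers were chosen with earlier results of these data known. Replicates are separate mice. Alternatives were other list lengths, orders, filters, region definitions, sample sets, a lane covariate and a replicate block. One promoter sequence is not reported here.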

Additional observations from a re-analysis of the deposited data

Results flagged for a closer look

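Of 228 groups of values examined, 11 had a mouse far from the others of its group, where about 1 in 20 is expected by chance. Aged Bleo 1 had the highest background coverage of its group (1.598), Aged Bleo 3 the lowest share of kept peaks with a RUNX match (2.48%) and Aged Bleo 2 the highest percentile at Jund (99.6). Aged Sham 4 stood above the other 3 Aged Sham mice at Pias4 (88.5), Trappc2l (85.7), Pdgfb (21.6), Notch1 (9.67), Fabp4 (12.4) and Plvap (34.2), which makes up 6 of the 11. Aged Sham 3 stood below its group at the Gata2 promoter (70.7) and Aged Sham 2 above it at Irf9 (71.1).

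The response to bleomycin differed between ages at 25 regions that were higher and 36 that were lower at 18 months than at 2 months by the limma interaction term. Some of these regions entered the fit through kept peaks in 1 group of 2-month mice alone. At Lcorl the response was 4.71 percentile points lower at 18 months (-4.71, adjusted p = 0.0357) and at Zfp712 7.01 lower (-7.01, adjusted p = 0.0476).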

How the results depend on the processing

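Rank calls depended on the setting. Higher and lower regions, 496 and 387 as reported, numbered 0 and 0 with all peaks, by the order of fold enrichment and with lane as a covariate (limma; the counts at an unadjusted p under 0.05 stand in the report), 37 and 19 with no filter, 7 and 14 without the mean-variance trend, and 1175 and 1259 with all 18 mice in the fit. With the replicate block both were 0 (smallest adjusted p = 0.0942; 1896 and 2223 at an unadjusted p under 0.05); same-numbered mice did not deviate together (correlations of -0.206, 0.295, 0.0873 and -0.174), so that they share only a number. Leaving out 1 mouse gave 119 to 756 higher and 54 to 554 lower regions, and 29 to 47 regions called more and 39 to 69 called less often, where fewer mice limit the Fisher test. Presence counts became 84 and 462 when peaks had to cover 50% of a region, and interaction counts 12 and 14 with all peaks and 2 and 96 with lane; the cause was not tested.

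Directions turned with lane as a covariate at Prx (-1.36), Plvap (-5.04), Cdh13 (-11.6) and Bmp2 (-3.35), none of them called. Of 2012 values for 92 named regions, 1623 kept direction and side of the threshold and 340 kept direction without passing. The difference in ETS share was -0.0434 outside promoters and in RUNX share -0.0140 within 50 bp of summits. Without 1 mouse, the difference in number of peaks ran from -237 to 4722, in covered length from -1.18 to 0.523 Mb, in background coverage from -0.0512 to 0.141, in GC from -0.1845 to 0.000571 percentage points, and in motif shares from -0.296 to 0.508 (ETS), -0.165 to 0.517 (AP-1) and -0.00831 to 0.0748 (STAT). With all peaks the share of regions open in Young Sham alone differed by -21.7 (exact permutation p = 0.0238).

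Limits are the lane, the missing read depth, and power: shifts of 10 percentile points were seldom called in simulation at mean percentiles of 40 to 75. The called regions had median Aged Sham percentiles of 82.45 (higher) and 88.7 (lower), where power was not simulated. Ranks are relative, so that a rise at some regions lowers others.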

Other observations

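The Y chromosome held a kept peak at the promoters of Eif2s3y, Uty and Ddx3y in all 9 mice, regions chosen after their values were seen. Eif2s3y stood at 64.8, 59.3, 73.7 and 69.4 in Aged Sham and at 42.7, 24.97, 63.2, 44.3 and 57.2 in Aged Bleo (limma adjusted p = 0.131). Uty stood at 45.7 to 52.6 in Aged Sham 1 to 3, 32.7 in Aged Sham 4 and 15.98 to 46.8 in Aged Bleo (adjusted p = 0.330), and Ddx3y at 58.4 to 65.6 and 38.3 to 58.1 (adjusted p = 0.178). None passed.

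Motif families other than AP-1 also spread widely among the Aged Bleo mice. CTCF matches, which mark insulator sites, stood in 3.47%, 3.14%, 4.17%, 4.76% and 4.84% of the kept peaks of Aged Bleo 1 to 5 and in 2.75% to 3.63% of those of Aged Sham (adjusted exact permutation p = 0.357). Among the Aged Bleo mice the values were lowest in Aged Bleo 1 and 2, where AP-1 values were highest. This order held for kept peaks only. In full lists the CTCF shares of Aged Bleo 1 to 5 were 6.24%, 5.92%, 5.66%, 4.76% and 5.91%, with the highest in Aged Bleo 1 and 2. At 2 months the difference in CTCF share was 0.0316 percentage points (p = 0.905, exact permutation).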
